A study of Homo sapiens with 2 samples.

Results

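RNA BS-Seq of 2 human lines, MCF10A from normal mammary epithelium and MDA-MB-468 from a breast cancer, was searched for stretches of RNA in which neighboring cytosines stayed unconverted in both lines. Each line has 1 library and no replicate. Both were made from poly(A)-selected RNA of untreated cultures, each a single established line, and bisulfite was applied at 60 degrees for 8 hours. A stretch was a run of 5 or more consecutive cytosine sites, each at most 10 nt from the next, with a coverage of at least 10 and a methylation ratio (unconverted counts over all counts) of at least 0.2 at every site in both lines. The measured ratios therefore chose the members, and their level is a description with no test. In all, 2587 sites in 333 stretches were members, of 836347 nuclear sites covered at least 10 times in both lines. They are 0.309% of these shared sites, and 59.1% of the 4377 shared sites with a ratio of at least 0.2 in both lines.

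Bisulfite turns unmodified cytosine into uracil, which is read as thymine, while 5-methylcytosine (m5C) resists. Cytosines that are base paired when bisulfite is applied are also converted poorly, and DNA or RNA that never became single stranded is read as unconverted along its length. In mRNA, m5C is placed by enzymes such as NSUN2 and NSUN6.

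The stretches were sorted by where they lie, and these kinds differed in their medians. In the sense strand of mRNA there were 266 stretches, mostly short and rich in G and C, with a median pooled ratio (unconverted counts of the stretch over all its counts) of 48.0% for MCF10A and 42.6% for MDA-MB-468. Some sense stretches were neither, such as that on MGP, with a span of 62 nt and 52.5% G and C. Another 40 stretches lay on the strand opposite to an annotated exon, where no exon is annotated, and there the median pooled ratio was 99.1% for MCF10A and 99.6% for MDA-MB-468. The remaining 27 lay in exons of noncoding genes (6), in introns (7) or between genes or opposite an intron (14). The strand and the annotation were not used to choose the members.

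Sequences of stretches that carry these differences are shown here in GRCh37 coordinates, 5′ to 3′ on the strand of the stretch, as windows of 30 nt around the middle of each stretch. Capitals mark the member cytosines, and every other base is in lower case. The first 4 are the longest sense stretch on EIF1, the central one of 3 on MDH2, the one on MGP and the longer one on FTH1.
EIF1 5′UTR, chr17:39845196-39845225, plus strand: tCCCgaCgttCCgttCCCCCCtgCCCgCCt
MDH2 CDS, chr7:75692859-75692888, plus strand: CCCtgtCattggtggCCatgCtgggaagaC
MGP first exon, chr12:15038718-15038747, minus strand: gaCtgaCCtgCaggaCgaaaCCatgaagag
FTH1 5′UTR, chr11:61734912-61734941, minus strand: cgcgcagCCaCCgCCgCCgCCgCCgcctct
The next 4 are short G and C rich stretches whose neighborhood holds a complementary segment.
MARCKS CDS, chr6:114180991-114181020, plus strand: gcggcgtcgCCCtCCgCggCCgagaaaggt
MGAT4B 5′UTR, first of a pair, chr5:179233678-179233707, minus strand: ctccccgacCCggggCCggggCccctgccg
MGAT4B 5′UTR, second of a pair, chr5:179233630-179233659, minus strand: gacccctgcgCCCCggCCCCggtcccccgg
NEAT1, chr11:65190875-65190904, plus strand: ctgggacggggCCCaggCCgggcccagcct
The last 3 lie opposite to exons of S100A9, ANP32B and the pseudogene NPM1P27.
opposite S100A9, chr1:153330845-153330874, minus strand: CtttgaattCCCCCtggttCagggtgtCtg
opposite ANP32B, chr9:100773602-100773631, minus strand: tCttCatCttCatCatCttCttCatCaaaC
opposite NPM1P27, chr5:93018883-93018912, plus strand: aaatCatCatCatCatCatCttCatCatCa
In the last 3, and in EIF1, MDH2 and MGP, every cytosine of the window is a member, whatever base follows it. In MARCKS, MGAT4B and NEAT1 the members sit in 1 short block with cytosines outside the block that are not members. This contrast goes with the length of the stretches. The former span 51 to 118 nt, more than the window of 30 nt, and the latter 8 to 13 nt.

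The depth limits single sites more than stretches. The median coverage of the members was 23 for MCF10A and 22 for MDA-MB-468, against 23 and 21 over all shared sites, and it ranged from 10 to 11357 and from 10 to 64614. At a coverage of 23, a ratio of 12 in 23 has a 95% Wilson interval of 33.0% to 70.8%. The reads carry no molecular identifiers, so such intervals cover counting error only. Over all shared sites the pooled ratio was 2.20% for MCF10A and 2.01% for MDA-MB-468. The members held 11.7% (MCF10A) and 20.2% (MDA-MB-468) of all unconverted counts of the shared sites. A few very deep stretches outside exons weigh heavily in these shares, which therefore do not describe the typical member. The stretch at chr17:33478145-33478152 held 24277 unconverted counts for MCF10A and 109115 for MDA-MB-468. That at chrX:108297676-108297690 held 16323 and 56759, and that at chrX:108297821-108297829 held 7824 and 33024. The lines were checked against 11 marker genes by the number of cytosines covered at least 10 times. VIM had 486 in MCF10A, against 0 in MDA-MB-468, while the epithelial genes EPCAM and CDH1 had 0 in MCF10A, against 175 and 108. KRT14 and the leukocyte gene PTPRC had 0 in both, and KRT5, KRT8, KRT17, KRT18, KRT19 and EGFR were covered in both. In this order their median coverages were 24, 47, 27, 41, 11 and 17 in MCF10A. In MDA-MB-468 they were 23, 275.5, 216, 39.5, 889 and 43. No verdict on the labels is drawn from these counts.

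**Figure D1:**
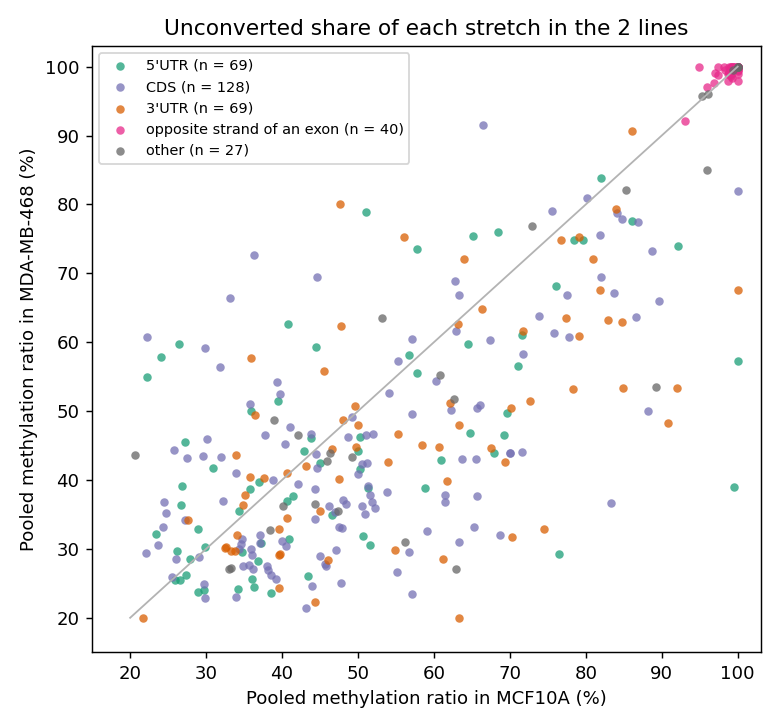
Pooled methylation ratio of each of the 333 stretches in MCF10A (horizontal axis, %) and MDA-MB-468 (vertical axis, %), 1 point per stretch, colored by where it lies. The grey line marks equal ratios. The 40 stretches opposite to an exon all sit at the upper right, above 92% in both lines, while the mRNA stretches spread from 20% to 100%.

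Most stretches were short. The median stretch had 7 member sites over 10 nt, the shortest allowed had 5 sites, and the longest had 64 sites over 118 nt. There were 105 runs of exactly 5 sites, just inside the minimum, and 119 of exactly 4 sites, just outside it. Among the members, 274 had a lower ratio of 0.2 to under 0.25, and 1462 other shared sites had a lower ratio of 0.15 to under 0.2.

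Where the members lie differed from where the shared sites lie. The 5′UTR, the part of an mRNA before the coding region, held 22% of the members and 8.96% of all shared sites. The coding region (CDS) held 33.6% of the members and 64.8% of the shared sites, and the 3′UTR held 18.2% and 20.9%. The opposite strand of an exon held 18.1% of the members but 0.154% of the shared sites. The other 1790 shared sites with a ratio of at least 0.2 in both lines, which lie in no stretch, had nearly the same share in 5′UTRs (23%), but 44.1% in the CDS and 5.20% opposite to exons. Read the other way, 0.758% of the shared 5′UTR sites were members (95% Wilson interval 0.698% to 0.822%), against 0.160% of the CDS sites (0.15% to 0.171%) and 0.269% of those in 3′UTRs (0.245% to 0.294%). On the opposite strand of exons, 467 of 1291 shared sites were members (36.2%, interval 33.6% to 38.8%). These intervals treat sites as independent, and the sites of a stretch share reads, so they are too narrow. Runs of low sites chosen by the same spacing and length but with every ratio under 0.2 in both lines, called comparison stretches here, had 8.98% of their sites in 5′UTRs and 0.0823% opposite to exons.

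**Figure D2:**
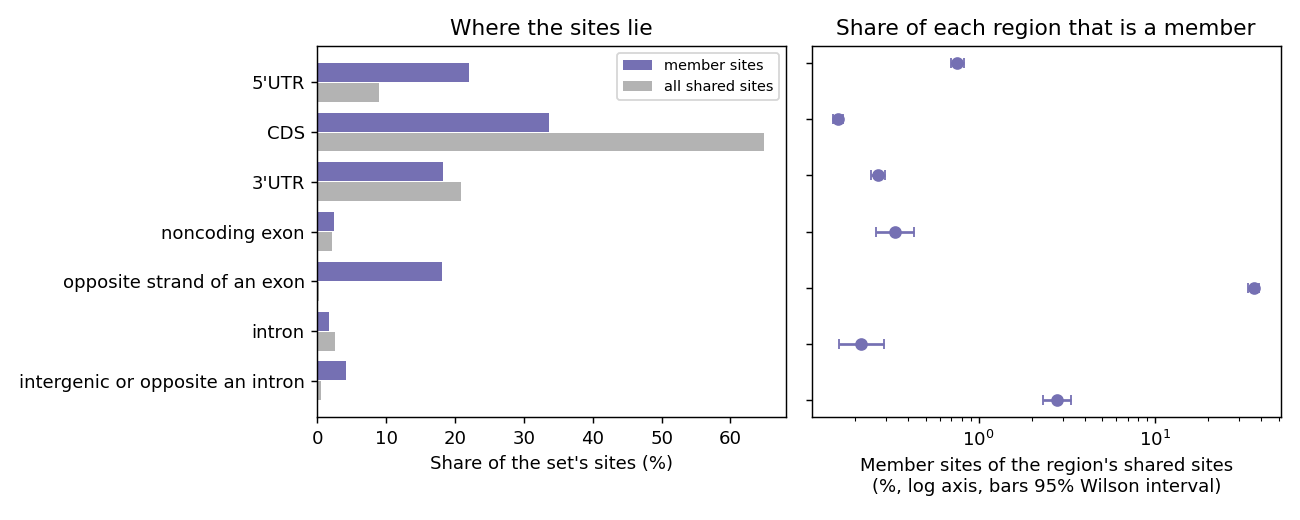
Left, share of the 2587 member sites and of the 836347 shared sites in each region (%). Right, member sites as a share of the region's shared sites (%, log axis) with 95% Wilson intervals. The opposite strand of an exon stands at 36.2%, far from the 0.160% of the CDS.

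The sense stretches of mRNA lay on 211 genes. A single stretch was found on 171 of them, a pair on 28, and 3 or more on 12. The most had MAZ, a zinc finger transcription factor, with 5 stretches and 51 sites, and BCL9L, a coactivator of Wnt signaling, with 4 stretches and 24 sites. There were 3 stretches each on MDH2, IER5L, EHBP1L1, JUND, H1-10, CEBPB, LARP1, FASN, NR2F6 and STRN4. Of the 69 stretches in 5′UTRs, 66 lay in the first exon. They were no nearer to the annotated start of the transcript than other 5′UTR runs: the median position was 186 nt from the start, against 174 nt for comparison stretches, and 26.1% against 28.2% lay within the first 100 nt.

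In most of these genes the rest was read as mostly converted. In the 204 genes with at least 20 further shared sites, the pooled ratio of those further sites had a median of 2.29% for MCF10A and 1.79% for MDA-MB-468 and a maximum of 12.6% and 13.5%. The members of these 204 genes had medians of 48.0% and 42.7%. Genes with fewer further sites were left out. Among them EHF had 95.7% and 43.0% at 9 further sites, and TBCA 42.2% and 65.4% at 4. BOLA3 had 9.49% and 16.8%, ZMAT5 8.76% and 6.45%, and DZIP1 2.70% and 2.72%. MGP and LCN2 had no further shared site. Of the 532 ends of the mRNA stretches, 348 (65.4%) ended at a neighboring site within 10 nt whose ratio was below 0.2 in both lines. At these ends the last member had a median ratio of 43.1% for MCF10A and 37.1% for MDA-MB-468, and the next site 3.33% and 1.74%. A last member is at least 0.2 by the rule, and these next sites were picked as below 0.2. A drop was therefore fixed in advance, and only its size is described. In 41 ends the next site was below 0.2 in MCF10A only and in 63 in MDA-MB-468 only. Another 80 ends had no shared site within 10 nt. From 11 to 20 nt beyond the ends, the median ratio was 1.31% for MCF10A and 0% for MDA-MB-468.

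The longest stretch lay in the 5′UTR of EIF1, a translation initiation factor that takes part in the choice of the start codon. Its 64 sites had a pooled ratio of 68.4% for MCF10A and 76.0% for MDA-MB-468. The ratio was lower toward the 3′ end in both lines: it was 89.3% for MCF10A (25 of 28) and 92.6% for MDA-MB-468 (25 of 27) at the first site, 68.4% (52 of 76) and 71.7% (38 of 53) at 62 nt further, and 22.8% (13 of 57) and 31.6% (12 of 38) at the last site, 117 nt from the first. No site differed between the lines past the test given below. The other 141 shared sites of EIF1 had a pooled ratio of 1.70% for MCF10A and 2.04% for MDA-MB-468. Its mean pairing probability, predicted as described below, was 0.24.

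MDH2, the mitochondrial malate dehydrogenase of the citric acid cycle, had stretches in 3 neighboring coding exons. The stretch in exon 5 had 9 sites with pooled ratios of 36.4% for MCF10A and 72.7% for MDA-MB-468. The one in exon 6 had 22 sites with 44.6% and 69.4%, and the one in exon 7 had 17 sites with 33.2% and 66.5%. All 3 were higher in MDA-MB-468 by 24.8 to 36.3 percentage points, but no single site passed the test at median coverages of 14 to 55 per stretch. The other 106 shared sites of MDH2 had pooled ratios of 4.18% for MCF10A and 11.3% for MDA-MB-468. The ratios were nearly level within the exon 6 stretch, between 36.4% and 56.2% in MCF10A and between 57.9% and 84.2% in MDA-MB-468.

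**Figure D3:**
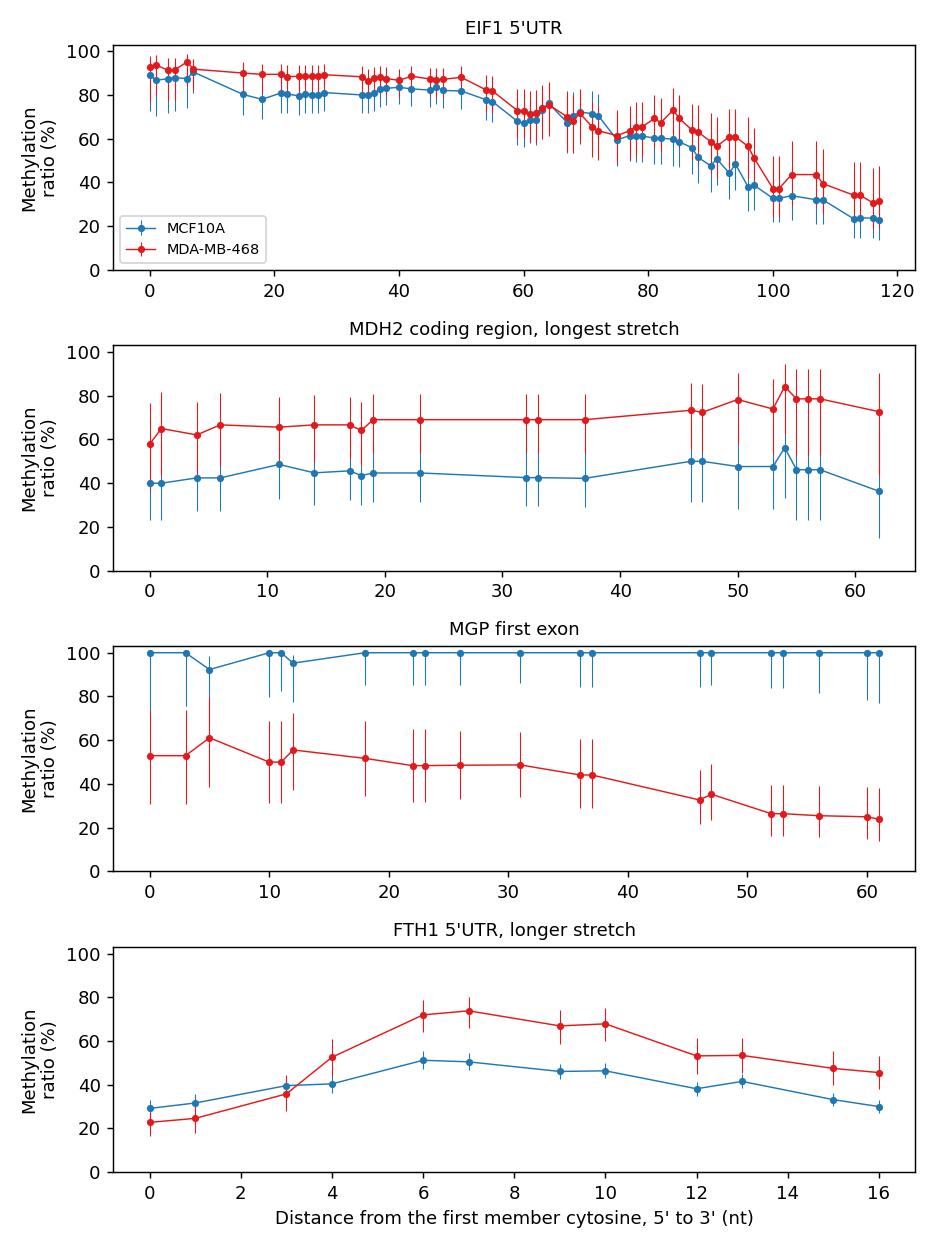
Methylation ratio (%) of each member site along 4 stretches, against its distance in nt from the first member in the direction of the RNA. Points are single sites in MCF10A (blue) and MDA-MB-468 (red), with 95% Wilson intervals of the counts. EIF1 is lower toward the 3′ end in both lines, MDH2 is level and higher in MDA-MB-468, MGP stays near 100% in MCF10A only, and FTH1 peaks in the middle.

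Predicted base pairing was higher at the members in coding regions and 3′UTRs, while in 5′UTRs the result depended on the measure. A member was counted as paired when its predicted pairing probability exceeded 0.5 at 70 degrees, and it was set against comparison sites on the same transcripts. In the CDS 79.1% of the members were paired, against 58.9% of comparison sites, and in the 3′UTR 83.2% against 57.5%. In the 5′UTR the shares were 60.7% against 60.5%, and above a probability of 0.9 they were 19.4% against 8.23%. Averaged by stretch, the mean pairing probability in 5′UTRs was 0.66, against 0.57 in comparison stretches on the same transcripts. The 5′UTR share by site includes the 64 sites of EIF1, of which 5 were paired. Over the sense strand of mRNA 74.6% of the members were paired, against 58.7% of comparison sites, and 30.6% against 7.81% lay above 0.9. Over all members 66.2% were paired and 25.4% lay above 0.9. These include members outside exons, for which no comparison sites were folded. The members opposite to exons were paired in 32.1%. The sense stretches were also richer in G and C: the median over 61 nt was 80.3% in 5′UTRs, 75.4% in the CDS and 67.2% in 3′UTRs, against 68.9%, 60.7% and 59.0% in comparison stretches. The stretches opposite to exons had 45.9%.

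Most sense stretches had a perfectly complementary segment nearby. In 149 of the 266 (56.0%), part of the central 15 nt had a perfect Watson-Crick complement of 8 nt or more within 150 nt on either side, against 6.78% of 45932 comparison stretches. The share was higher at each level of base composition: with 60% to 70% G and C it was 55.6% of 63 stretches against 7.31% of 17088, with 70% to 80% it was 60.9% of 92 against 10.5% of 5791, and with 80% or more it was 61.2% of 85 against 19.4% of 1088. These levels are of the 61 nt around the stretch, and the composition of the central 15 nt was not matched. Opposite to exons the share with a complement was 2 of 40 (5.00%). The genomic sequence was searched, so a complement in an intron counts. For MARCKS, a substrate of protein kinase C that binds actin, the stretch part ccctccgcggccg had the complement cggccgcggaggg 115 nt further along the RNA. For the long noncoding RNA NEAT1, the scaffold of paraspeckles, cccaggccg had cggcctggg 15 nt before it.

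Where the complementary segments were measured, most of their cytosines were unconverted as well. Of the 149 complements, 79 held shared sites that belonged to no stretch themselves, and in 13 of these no such site reached 0.2 in either line. Of the 221 sites, 168 (76.0%) had a ratio of at least 0.2 in MCF10A, and 163 (73.8%) did so in MDA-MB-468. Their median ratios were 47.4% and 41.4%. The minimum of 8 nt, the limit to sites of no stretch and the windows set beside them were chosen after the data were seen. Windows of the same length at the same distance on the other side of the stretch held 351 such sites, of which 1 (0.285%) reached 0.2 for MCF10A and 5 (1.42%) for MDA-MB-468. Median coverages were 26 in each of these sets in MCF10A and 27 and 25 in MDA-MB-468. The complements of comparison stretches held 2166 sites, of which 3.23% reached 0.2 for MCF10A and 1.75% for MDA-MB-468. Over all shared sites the shares were 1.19% and 0.937%. For 16 stretches the complement held members of another stretch. In MGAT4B, a glycosyltransferase of N-glycan branching, the 2 stretches printed above are each other's complement: gccccggccccgg of the second pairs with ccggggccggggc of the first, 48 nt apart. Their pooled ratios were 56.7% and 69.2% in MCF10A and 58.1% and 46.6% in MDA-MB-468 for the first and the second. CENPB, which binds centromere DNA, and CDK16, a cyclin-dependent kinase, had such pairs as well. MARCKS has 4 shared sites in its complement, of which 3 reached 0.2 in each line, with pooled ratios of 47.7% for MCF10A and 40.5% for MDA-MB-468. NEAT1, MARCKS, MGAT4B, CENPB and CDK16 were named here after their values were seen. Whether pairing has a part in the ratios was not tested.

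**Figure D4:**
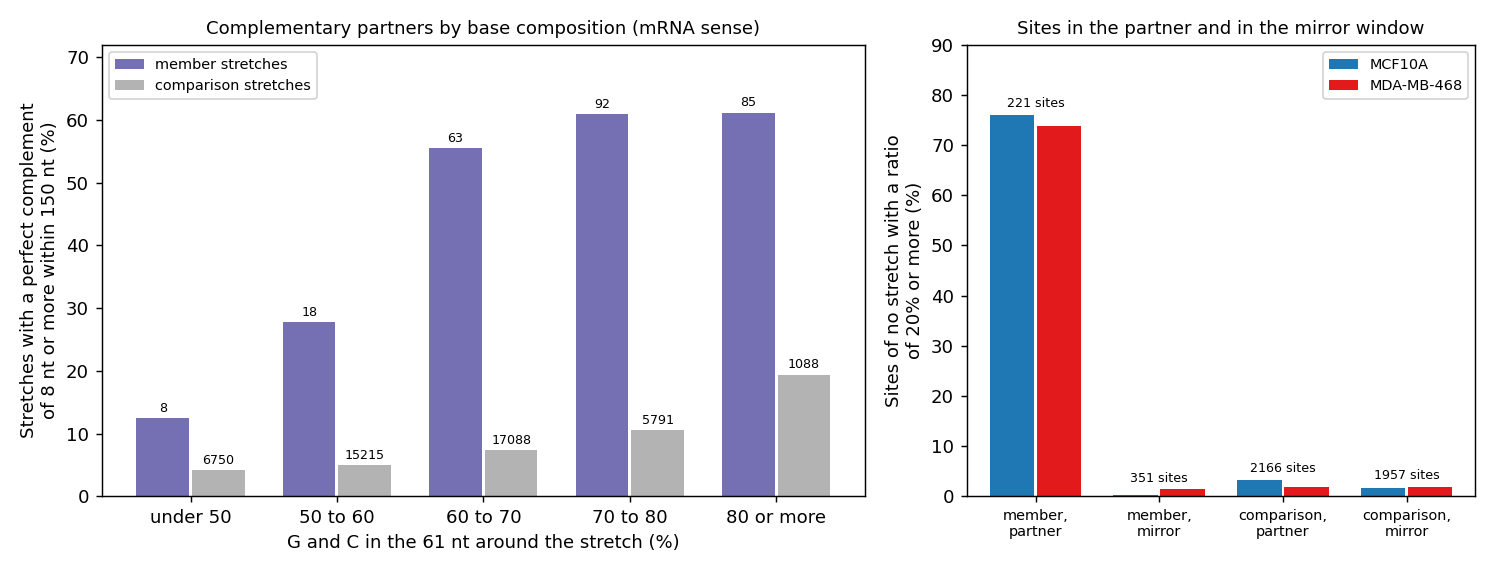
Left, share of mRNA stretches with a perfect complement of 8 nt or more within 150 nt (%), by the G and C content of 61 nt around the stretch, for member and comparison stretches, with the number of stretches above each bar. Right, share of sites of no stretch with a ratio of 20% or more (%), in the complement and in the mirror window of equal length, by line. The complements of member stretches stand at 76.0% and 73.8%, the mirror windows at 0.285% and 1.42%.

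The members also differed in their neighbors. In mRNA, 87.0% of the members lay beside another cytosine, against 56.2% of the shared mRNA sites. The context CCC, centered on the member, made up 27.0% of the mRNA members and 10.1% of the shared mRNA sites, GCC 22.5% and 11.1%, and CCG 17.3% and 6.05%. At most 10 nt between sites was asked for, which favors cytosine-rich sequence. Of the members opposite to exons, 49.7% lay beside another cytosine, and 6.85% were followed by G, against 22.9% of the mRNA members.

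Opposite to exons the stretches were longer by the median and almost wholly unconverted. They had a median of 10.5 sites over 26.5 nt, all 40 had pooled ratios of at least 90% in both lines, and 446 of 467 members (95.5%) had a ratio of at least 0.9 in both. Every one of their 80 ends had no further shared site within 10 nt, and 26 shared sites 11 to 20 nt beyond the ends had a median ratio of 100% in both lines. The 40 stretches lay opposite to 24 genes. The calcium-binding protein gene S100A9 had 7 stretches with 85 sites, and 10 genes had a pair each, NEAT1, SERF2, COX6C, AZGP1, EIF3D, MSN, APP, SEC61G, NUCKS1 and RHOB. The stretch with most sites lay opposite to NEAT1, with 23 sites over 51 nt at 98.9% for MCF10A and 99.3% for MDA-MB-468 and median coverages of 94 and 20. The next were 21 sites opposite to S100A9 at 99.1% and 98.9%, 20 opposite to ANP32B at 98.7% and 97.9%, and 20 opposite to AZGP1 at 100% and 99.4%. TALAM1, an RNA annotated on the strand opposite to MALAT1 and so counted with the noncoding exons, had 22 sites at 99.4% in each line. A pair of stretches opposite to SERF2 and an intronic one in LINC01515 had pooled ratios of 100% in both lines. With an intergenic one at chrY:6980111-6980121 they had the smallest differences among stretches covered at least 20 times in both lines. That one was unconverted in 145 of 145 counts for MCF10A and 670 of 670 for MDA-MB-468. Whether its reads were aligned to the right place was not tested.

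The stretches opposite to exons were set beside the annotated strand at the same place. In windows reaching 20 nt past each stretch, 35 of the 40 had sites of the annotated strand in each line. The annotated strand had a median pooled ratio of 4.46% for MCF10A and 1.55% for MDA-MB-468. Its median coverage was 37 for MCF10A and 74 for MDA-MB-468, while the stretches themselves had 20 and 16. The annotated strand was the less covered one beside 12 stretches for MCF10A and 10 for MDA-MB-468, such as NPM1P27, with 20 against 236 on the opposite strand in MCF10A. The 7 stretches opposite to S100A9 had coverages of 15 to 26.5 in MCF10A and 11 to 18 in MDA-MB-468, although the annotated strand next to them had 8 to 43 in MCF10A and 1263 to 3747.5 in MDA-MB-468. Over the 112 shared sites on the annotated strand of S100A9 the pooled ratio was 48.1% in MCF10A at a median coverage of 25, and 1.83% in MDA-MB-468 at a median coverage of 2225. The labels do not state whether the libraries keep strand information, so the origin of reads on the opposite strand cannot be told apart here.

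**Figure D5:**
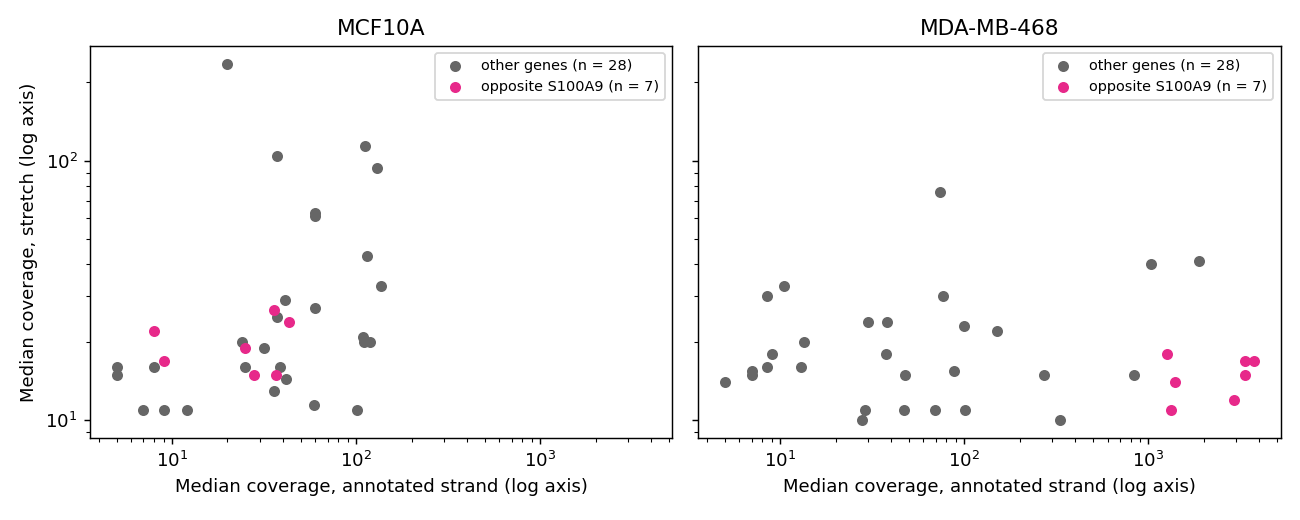
Median coverage of the stretches opposite to exons (vertical, log axis) against that of the annotated strand in the same window (horizontal, log axis) in MCF10A (left) and MDA-MB-468 (right), for the 35 stretches of each line with sites on the annotated strand. The 7 stretches opposite to S100A9 keep coverages of 11 to 26.5 while the annotated strand moves from at most 43 to at least 1263.

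Differences between the lines were tested site by site by Fisher's exact test, two-sided, on the unconverted and converted counts, with Benjamini-Hochberg adjustment at 0.05 over all 836347 shared sites. With 1 library per line, the test compares these libraries and not the cell types. Of all shared sites, 788 were called (0.0942%), 656 of them higher in MCF10A and 132 higher in MDA-MB-468. Among the members 46 of 2587 were called (1.78%), 40 higher in MCF10A and 6 higher in MDA-MB-468. The count fell to 23 when both lines were thinned to the lower coverage of each site, and to 28 when only exonic sites were tested. Of the other 1790 sites with a ratio of at least 0.2 in both lines, 16 were called (0.894%). The same counts chose the members, and a member must be at least 0.2 in both lines, so no more is read from these shares. Sites of a stretch share reads, and the 46 calls fell in 9 stretches. Opposite to exons none of 467 was called. Across stretches, the pooled ratios of the lines had a Pearson correlation of 0.60 in 5′UTRs (n = 69), 0.60 in the CDS (n = 128) and 0.62 in 3′UTRs (n = 69), given as a description because both lines set the membership. Of the 266 mRNA stretches, 186 were lower in MDA-MB-468 and 80 higher, with a median difference of -6.49 percentage points. Over all shared sites, 280242 were lower and 199785 higher in MDA-MB-468.

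The largest difference was in MGP, matrix Gla protein, an inhibitor of calcification. Its stretch had 20 sites in the first exon, 13 in the 5′UTR and 7 in the CDS, with a pooled ratio of 99.5% for MCF10A and 38.9% for MDA-MB-468. Of these, 13 were called. At position 15038710 all 20 counts were unconverted for MCF10A and 14 of 53 for MDA-MB-468 (26.4%, adjusted p = 7.67e-06, Fisher's exact test). In MDA-MB-468 the ratio ran from 61.1% near the start of the stretch to 23.9% at its end, while in MCF10A it was at least 92.3% at every site. Further along the same gene another stretch, on the opposite strand, had 5 sites, and the annotated strand beside it was 85.9% unconverted in MCF10A, at a median coverage of 7, and 2.68% in MDA-MB-468, at 329.5.

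The other calls fell in 8 stretches. FTH1, the heavy chain of the iron store ferritin, had 12 sites with 39.5% for MCF10A and 51.5% for MDA-MB-468, of which the 4 in the middle of the stretch were called as higher in MDA-MB-468, such as 322 of 638 (50.5%) against 107 of 145 (73.8%, adjusted p = 0.000500, Fisher's exact test). At the first sites of the stretch the order was the other way, with 29.2% against 22.8%, a difference that was not called. TUBB4B, a beta tubulin, had 8 sites in its 5′UTR at 24% and 57.9%, of which 2 were called. SELENOW, a selenoprotein, had 5 adjacent cytosines in its 3′UTR at 78.4% for MCF10A and 53.2% for MDA-MB-468, all called. CDC37, a cochaperone of HSP90, had 92.1% and 53.3% with 2 of 5 sites called, and MARCKS had 63.7% and 43.0% with 3 of 8. The second MGAT4B stretch had 69.2% and 46.6% with 1 of 8. NR2F6, a nuclear receptor (76.5% and 29.2%), MYADM (74.5% and 32.9%) and TNFAIP2 (57.1% and 23.5%) were among the 6 largest differences of stretches with a median coverage of at least 20 in both lines. They held no call, at median coverages of 20 to 22.5 in MCF10A.

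Of the 6 most deeply covered stretches, 5 lay outside the exons of coding genes. One on chromosome 17, chr17:33478145-33478152 on the minus strand and opposite an intron, had a median coverage of 10289 for MCF10A and 55742 for MDA-MB-468. Its pooled ratio was 33.0% and 27.1%, and all 7 of its sites were called although the differences were 4.99 to 7.14 percentage points. Intergenic stretches on chromosome X had 60.8% for MCF10A and 55.2% for MDA-MB-468 at chrX:108297676-108297690, with 9 of 10 sites called, and 85.2% and 82.1% at chrX:108297821-108297829, with none called. An intronic stretch of SLCO5A1 had 45.9% and 42.7%, the NEAT1 stretch 49.3% and 43.3%, and the 3′UTR stretch of CEBPB, a transcription factor of the bZIP family, 40.7% and 41.0%. At such coverage, differences of a few points were called that the median member could not have shown. Whether the reads of these deep stretches came from the places they were aligned to was not tested.

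Stretches were counted over gene groups without a test. Of 5610 genes with a run of either kind in mRNA, 211 (3.76%) had a sense stretch. Of 22 immediate-early and stress response transcription factors 6 had one (CEBPB, CEBPD, JUN, JUNB, JUND and SOX4), and of 44 splicing and RNA-binding proteins 8, among them HNRNPA2B1, PTBP1, SFPQ and SRSF4. None was found on 44 ribosomal proteins of the large subunit, 23 of the small subunit, 19 chaperones, 15 glycolytic genes, 10 histone and HMG genes or 7 keratins. The linker histone H1-10, which had 3 stretches, is not on the histone list. EIF1 was the 1 of 29 translation factors, MYL12B and TUBB4B the 2 of 24 cytoskeleton genes, EGFR and SDC1 the 2 of 14 epithelial genes and FTH1 the 1 of 4 iron genes. Of 6 nuclear long noncoding RNAs, NEAT1 and MALAT1 had one, in noncoding exons, which the 3.76% does not cover. Genes with more covered cytosines had more chances to hold a run. SRSF4, a splicing factor, had 12 sites in its 5′UTR at 40.8% for MCF10A and 62.7% for MDA-MB-468. SDC1, a cell surface proteoglycan, had 16 sites in its 3′UTR at 76.7% and 74.8%, and the receptor EGFR had 5 at 70.2% and 50.4%.

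The copy number of the sequences was counted in the genome. For 12 of the 333 stretches the central 30 nt occurred more than once in GRCh37, and with every cytosine read as thymine, as after conversion, for 35. Opposite to exons these counts were 6 and 10 of 40, and in mRNA 4 and 20 of 266. The part of repeated sequence in the ratios was not tested.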

How the data were processed

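The authors deposited, for each cytosine, the count of unconverted and of converted reads, per line and without normalization. Per the methods, reads were trimmed with Trim Galore and aligned to hg19 with MeRanTK, while the submitters' processing notes name Trim Galore and Bismark. Versions are not given in the sources used here. For its own m5C calls the paper also dropped sites in predicted double-stranded RNA, as likely false positives, and nuclear sites outside known exons. No such filter was applied here, so the members include sites of both kinds. Sites down to a coverage of 5, introns among them, are listed. Reads left unconverted as a whole stay in such counts unless a filter removes them.

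The tables of 3146911 and 3489803 sites were joined, and nuclear sites with at least 10 counts in both were kept. All fell on a cytosine of GRCh37. Regions came from GENCODE release 44 basic transcripts, in the order 5′UTR, CDS, 3′UTR. RNA was folded with ViennaRNA 2.7.2 in a window of 300 nt, a span of 150 nt and 70 degrees. Exonic sites were folded on spliced transcripts, and members outside exons on genomic sequence. Comparison sites were folded on transcripts that carry a member, a choice made after timing one run. The site test used Fisher's exact test. It was tested on simulated counts. QNB, which the methods use, models the spread within groups and was not run here. The members, lists and tests were chosen with earlier results of these data known. Stretches were named by rule: the 10 with most sites, the 6 most deeply covered, the 6 with the largest and the 4 with the smallest difference at a coverage of at least 20, and those on listed genes. Others, and those holding calls, were named after their values were seen. Scripts used pysam 0.24.0, numba 0.67.0, scipy 1.17.1, pandas 2.3.3 and numpy 2.4.6 on Python 3.11.15. Mitochondrial sites were not analysed here.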

Additional observations from a re-analysis of the deposited data

How the results depend on the processing

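No paired analysis was possible because each line has 1 library. With a coverage of at least 20 there were 126 stretches with 999 sites, with medians of 54.6% for MCF10A and 48.4% for MDA-MB-468. The share was 24.9% in 5′UTRs, 14.1% in 3′UTRs and 15.4% opposite to exons, and 61.6% were paired. With a ratio of at least 0.3 there were 210 stretches with 1705 sites, medians of 77.3% and 68.6%, shares of 19.2% in 5′UTRs, 26.3% in the CDS and 27.4% opposite to exons, and 62.4% paired. With runs of 8 or more there were 116 stretches with 1339 sites, medians of 69.2% and 63.6%, shares of 27.1%, 23.1%, 13.5% and 29.4% in 5′UTRs, the CDS, 3′UTRs and opposite to exons, and 50.5% paired. With gaps of at most 5 nt, 23.9% lay in 5′UTRs and 15.7% opposite to exons. With the CDS ahead of the 5′UTR, 20.2% lay in 5′UTRs. The paired share was 25.4% above a probability of 0.9, 72.2% at 37 degrees and 68.2% with genomic sequence for every site. Calls among members fell to 23 when both lines were thinned to the lower coverage, and to 28 when only exonic sites were tested, which leaves out the intergenic stretches. The stricter ratio, gap and run length can only select among the main members, so their overlap with these was fixed by the rule. They kept 65.9%, 89.4% and 51.8% of the main members. With a coverage of at least 20, all 999 sites were main members, 38.6% of them. In each of the 4 alternative selections the share in 5′UTRs stayed above the 8.96% of all shared sites. With complements of at least 7 nt, 74.4% of the mRNA stretches and 22.6% of the comparison stretches had one, and 65.9% (MCF10A) and 64.0% (MDA-MB-468) of the sites in the complements reached 0.2. With at least 10 nt these shares were 28.6%, 0.424%, 83.1% and 83.1%, and 0% (MCF10A) and 1.44% (MDA-MB-468) of the sites in the mirror windows reached 0.2, against 1.25% and 2.49% with at least 7 nt. With sites of other stretches counted, 82.6% and 80.9% of the sites in the complements did. These complement settings were chosen after seeing the data. Depth limits the calls: 136 of the 333 stretches were covered at least 20 times in both lines.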
